A study of Mus musculus with 6 samples.

Results

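Potassium channels that hold neurons near their resting potential were examined in neurons of the medial mammillary nucleus, which lies at the back of the hypothalamus. The 10 genes were taken by name from a deposited table of 55414 mouse genes. They are 4 subunits of G-protein-gated inwardly rectifying channels (GIRK: Kcnj3, Kcnj5, Kcnj6 and Kcnj9) and 6 tandem-pore leak channels (K2P: Kcnk1, Kcnk2, Kcnk3, Kcnk9, Kcnk10 and Kcnk12). The study compared 3 libraries of neurons with the genotype label PV-positive (parvalbumin, replicates 6, 7 and 8) and 3 of neurons labelled Drd2-positive (D2 dopamine receptor, replicates 1, 2 and 3). All came from male mice. Fluorescent cells were drawn into glass electrodes from papain-treated slices, per the labels' protocols. The age of the mice, the driver line and the number of cells or mice behind a library were not given in the sources used here.

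GIRK channels are tetramers that open when a receptor coupled to the Gi/o class of G proteins releases G-protein beta-gamma subunits at the membrane. The resulting potassium current produces slow synaptic inhibition. K2P channels are dimers, and most of them pass a background potassium current without a voltage step or ligand. Some are closed by receptors coupled to Gq, so both groups link transmitter receptors to the excitability of a neuron at rest.

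The structural difference between the families can be read in their coding sequences. A potassium channel pore is lined by a short selectivity filter. A GIRK subunit contributes 1 such filter to the pore, and a K2P subunit contributes 2. The in-frame pattern ACNNNNGGNNNNGGN was searched on the coding strand of the principal GENCODE M21 transcript of each gene. It occurred once in each of the 4 GIRK genes and at 2 places in each of the 6 K2P genes. Among 21792 principal coding sequences 11.3% held it at least once and 1.51% held it 2 or more times, so the match is a description and no mark of a channel. Stretches are shown for Kcnj3, Kcnj9 and Kcnk3, which lead the comparison below, and for Kcnk9, the close relative of Kcnk3. Capitals mark the pattern.
Kcnj3: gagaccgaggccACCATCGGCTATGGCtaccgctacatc
Kcnj9: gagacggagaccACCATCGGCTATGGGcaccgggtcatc
Kcnk3, first pore: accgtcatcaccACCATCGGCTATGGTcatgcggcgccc
Kcnk3, second pore: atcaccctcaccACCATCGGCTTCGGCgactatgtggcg
Kcnk9, first pore: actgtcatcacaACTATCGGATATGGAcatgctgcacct
Kcnk9, second pore: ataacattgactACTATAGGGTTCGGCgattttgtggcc
On GRCm38 the Kcnj3 stretch lies in coding sequence at chr2:55437615-55437653 (plus strand) and that of Kcnj9 at chr1:172326172-172326210 (minus strand). The second-pore stretches lie at chr5:30622190-30622228 (plus strand) for Kcnk3 and chr15:72512707-72512745 (minus strand) for Kcnk9. Their first-pore stretches span an intron, between chr5:30588581-30621910 (plus strand) and between chr15:72513025-72546015 (minus strand). The first-pore stretch was split by an intron in 6 of 6 K2P genes, and neither the second-pore stretch nor the GIRK stretch was split in any member. Kcnk3 and Kcnk9 shared 31 of 39 bases in the first-pore stretch and 28 of 39 in the second. Over aligned coding bases, GIRK pairs were 67.2% (Kcnj3 and Kcnj5) to 72.5% (Kcnj5 and Kcnj6) identical. K2P pairs were 60.3% (Kcnk3 and Kcnk10) to 70.7% (Kcnk2 and Kcnk10) identical.

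Values are FPKM, fragments per kilobase of exon and per 1000000 fragments. Levels of different genes are thus set side by side per length of all annotated exons, whichever transcript is expressed. That length ran from 1972 bases for Kcnk12 to 12300 for Kcnk9, and orders, shares and ratios between genes depend on it. In PV replicate 7, Kcnk9 had 2007 fragments and Kcnk1 842, although Kcnk1 had the higher FPKM. Fragment totals behind the FPKM, recovered from the steps between low values, were 27.7 to 29.8 (PV) and 23.8 to 33.7 (Drd2) in units of 1000000. Genes at 1 FPKM or more numbered 8610 to 12398 in PV and 11110 to 12233 in Drd2. As a check of the labels, Pvalb was at 349 to 563 FPKM in PV and 10.4 to 99.5 FPKM in Drd2, and the Drd2 gene at 0 to 0.0132 FPKM in PV and 7.74 to 55.0 FPKM in Drd2. PV replicate 7 stood apart with the fewest such genes, and Drd2 replicate 3 with the highest Pvalb (99.5 FPKM) and lowest Drd2 (7.74 FPKM) of its group. Among 7 markers of neurons none was at 0, and their sum was 1371 to 1625 FPKM in PV and 1124 to 1357 FPKM in Drd2. Snap25 weighed most in the PV sums, at 751 to 1109 FPKM in PV and 202 to 503 FPKM in Drd2. Tubb3 went the other way, at 61.7 to 311 FPKM in PV and 428 to 563 FPKM in Drd2. Of the 7 markers, 4 had a log2 fold above 0 and 3 below, with a median of 0.07, so the sum does not stand for each marker. Of 7 mammillary transcription factor genes, Barhl1 was listed at 0 in all libraries. Nkx2-4, Sim2 and Barhl1 were listed at 0 in every PV library. The sum was 27.8 to 85.9 FPKM in PV and 87.5 to 133 FPKM in Drd2, without overlap. All 4 of these genes that were tested had a log2 fold below 0 for PV minus Drd2 (median -1.24), and none passed. Foxb1 was at 4.19 to 24.0 FPKM in PV and 26.4 to 76.4 FPKM in Drd2, without overlap, as for 13.1% of tested genes on the side lower in PV. In such bulk samples, fewer cells of a type and less RNA per cell cannot be told apart.

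PV neurons had higher mean levels of the GIRK subunits Kcnj3 and Kcnj9 and a lower mean level of the leak channel Kcnk3 than Drd2 neurons, but no member passed the test of the comparison. That test was limma on log2(FPKM + 1) over the 11478 genes that reached 1 FPKM in 3 or more libraries, and p-values were adjusted by the Benjamini-Hochberg method and held to 0.05. Of the 10 members 8 passed the filter on low values, and 0 of these 8 passed the threshold, where 0.261% of all tested genes did (0.0436% higher and 0.218% lower in PV). At an unadjusted limma p under 0.05 there was 1 member, Kcnk3, on the side lower in PV, against 12.8% of all tested genes (3.02% higher and 9.77% lower in PV). A log2 fold above 0 was found for 4 of the 8 members, Kcnj3, Kcnj9, Kcnk2 and Kcnk12, and for 38.4% of all tested genes. Kcnj3 and Kcnj9 were higher in every PV library than in any Drd2 library, a pattern shared by 5.83% of tested genes. All log2 folds are PV minus Drd2, and the median over all tested genes was -0.28.

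**Figure D1:**
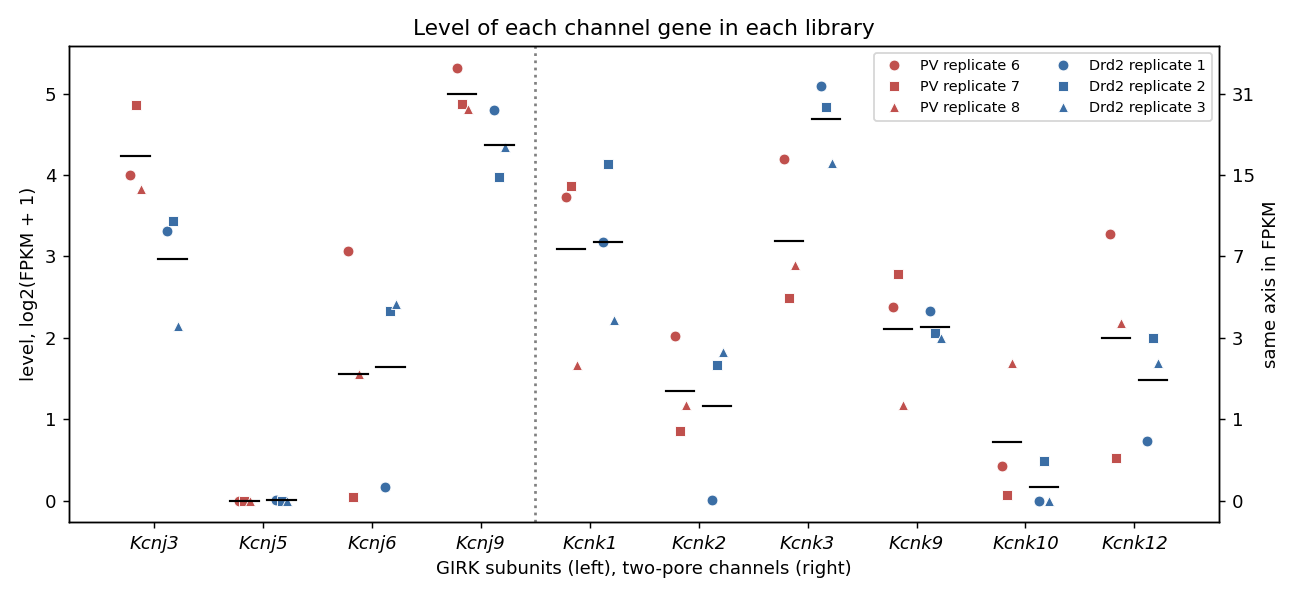
Level of each of the 10 genes in each library on a log2(FPKM + 1) axis, with FPKM on the right; PV libraries are red, Drd2 libraries blue, and bars are group means of the log2 values. Kcnj3 and Kcnj9 show no overlap between groups, Kcnk3 overlaps by a narrow margin, and Kcnj6, Kcnk2 and Kcnk12 spread widely within both groups.

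Kcnj9 encodes GIRK3, a subunit with a lysosomal sorting signal that modulates the surface number of channels it joins. The gene (ENSMUSG00000038026) spans chr1:172320501-172329318 on the minus strand of GRCm38. It was at 39.0, 28.3 and 27.1 FPKM in PV replicates 6, 7 and 8, against 26.8, 14.8 and 19.4 FPKM in Drd2 replicates 1, 2 and 3. The groups did not overlap, but the lowest PV library and the highest Drd2 library were nearly level. The means were 31.4 ± 6.55 FPKM in PV neurons and 20.3 ± 6.08 FPKM in Drd2 neurons (SD, n = 3 each). The log2 fold was 0.63 ± 0.45 (SE), with a 95% interval from -0.37 to 1.63 and an adjusted p of 0.588 in limma. After rescaling to TPM the groups overlapped, at 63.1 to 98.8 in PV and 42.0 to 74.0 in Drd2. Behind the FPKM values stood 3295 to 4982 fragments in PV and 1899 to 3878 in Drd2.

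Kcnj3 encodes GIRK1, which cannot reach the membrane alone and carries large currents when paired with a partner such as GIRK2 or GIRK4. The gene (ENSMUSG00000026824) spans chr2:55435970-55598145 on the plus strand of GRCm38. It was at 15.1, 28.2 and 13.2 FPKM in PV replicates 6, 7 and 8, against 8.95, 9.81 and 3.43 FPKM in Drd2 replicates 1, 2 and 3. Every PV library was above every Drd2 library, also after rescaling to TPM, by the median of ratios, or without mitochondrial genes. The means were 18.8 ± 8.17 FPKM in PV neurons and 7.40 ± 3.46 FPKM in Drd2 neurons (SD, n = 3 each). Its log2 fold was 1.27 ± 0.59 (SE), with a 95% interval from -0.05 to 2.59 and an adjusted p of 0.415 in limma. Its highest and lowest values came from PV replicate 7 and Drd2 replicate 3, and without that pair the log2 fold was 0.54. Of the exon bases of Kcnj3, 31.1% overlap a long noncoding RNA on the opposite strand (Gm26794), whose reads cannot be told apart from those of Kcnj3 where the strand setting is unknown.

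Kcnj6 encodes GIRK2, the subunit that can form channels by itself and brings GIRK1 to the surface. The gene (ENSMUSG00000043301) spans chr16:94748636-94997701 on the minus strand of GRCm38. It was at 7.38, 0.0331 and 1.94 FPKM in PV replicates 6, 7 and 8, against 0.124, 4.05 and 4.35 FPKM in Drd2 replicates 1, 2 and 3. Each group thus held a library with little Kcnj6, PV replicate 7 with 7 fragments and Drd2 replicate 1 with 32, and libraries with 420 to 1680. The fitted log2 fold was -0.08 ± 0.94 (SE), with a 95% interval from -2.19 to 2.03 and an adjusted p of 0.980 in limma, so changes of more than 4-fold in either direction lay within the interval. Without PV replicate 7 the log2 fold was 0.67. Gm41505, which overlaps 4.98% of the exon bases of Kcnj6 on the opposite strand, reached at most 4.31 FPKM. Antisense genes also overlap exons of Kcnj9 (Gm36937, at most 5.55 FPKM), Kcnk3 (Gm9899, at most 2.79 FPKM), Kcnk2 (A430027H14Rik, at most 0.182 FPKM) and Kcnk1 (Gm45875, listed at 0).

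Kcnj5 encodes GIRK4, the partner of GIRK1 in the heart atrium. It was listed at 0 in 5 of 6 libraries, and Drd2 replicate 1 held a single fragment (0.00633 FPKM). Zero fragments allow up to 3, or 0.0215, 0.0231 and 0.0226 FPKM in PV replicates 6, 7 and 8 and 0.0213 and 0.0269 FPKM in Drd2 replicates 2 and 3, for counting error only. Kcnj5 was thus not detectable at this depth in PV neurons, and it was not tested.

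Kcnk3 encodes TASK1, a leak channel closed by acid outside the cell and by Gq-coupled receptors. The gene (ENSMUSG00000049265) spans chr5:30588170-30625271 on the plus strand of GRCm38. It was at 17.3, 4.61 and 6.42 FPKM in PV replicates 6, 7 and 8, against 33.2, 27.5 and 16.7 FPKM in Drd2 replicates 1, 2 and 3. Of the PV libraries, replicates 7 and 8 lay below all Drd2 libraries and replicate 6 just above Drd2 replicate 3. The means were 9.45 ± 6.86 FPKM in PV neurons and 25.8 ± 8.37 FPKM in Drd2 neurons (SD, n = 3 each). On the log2 scale the fold was -1.50 ± 0.59 (SE), with a 95% interval from -2.83 to -0.17, an unadjusted p of 0.0306 and an adjusted p of 0.333 in limma. After rescaling to TPM the groups no longer overlapped, at 10.3 to 43.8 in PV and 47.2 to 91.6 in Drd2. They still overlapped after rescaling by the median of ratios (5.32 to 15.7 in PV, 13.5 to 29.5 in Drd2). Without mitochondrial genes they overlapped too (4.91 to 18.7 in PV, 16.1 to 31.2 in Drd2). Over all alternatives the log2 fold ran from -2.00 without PV replicate 6 to -1.15 without PV replicate 7, always below 0, and the lowest adjusted p was 0.141.

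Kcnk9 encodes TASK3, the close relative with which TASK1 can form mixed dimers. The gene (ENSMUSG00000036760) spans chr15:72501089-72546340 on the minus strand of GRCm38. It was at 4.19, 5.89 and 1.26 FPKM in PV replicates 6, 7 and 8, against 4.03, 3.15 and 3.00 FPKM in Drd2 replicates 1, 2 and 3. The PV libraries reached above and below all Drd2 libraries. The log2 fold was -0.02 ± 0.69 (SE), with a 95% interval from -1.56 to 1.52 and an adjusted p of 0.996 in limma. The ratio of Kcnk3 to Kcnk9 FPKM was 4.12, 0.783 and 5.10 in PV replicates 6, 7 and 8, against 8.24, 8.72 and 5.57 in Drd2 replicates 1, 2 and 3. This ratio, which library scaling cannot move, did not overlap between the groups, and it was chosen after its values were seen, so it was not tested. Of single tested genes 19% did not overlap in either direction, and no such share was computed for ratios.

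Kcnk1 encodes TWIK1, a weakly conducting channel that astrocytes also use. It was at 12.3, 13.6 and 2.18 FPKM in PV replicates 6, 7 and 8, against 8.04, 16.6 and 3.66 FPKM in Drd2 replicates 1, 2 and 3. PV replicate 8 and Drd2 replicate 3 were the low libraries, and the means of 9.35 ± 6.25 FPKM in PV neurons and 9.43 ± 6.58 FPKM in Drd2 neurons (SD, n = 3 each) lay well within the spread of each group. Its log2 fold was -0.09 ± 0.79 (SE; 95% interval from -1.85 to 1.68; limma adjusted p = 0.974). The summed level of 9 astrocyte markers was 706, 646 and 583 FPKM for PV replicates 6, 7 and 8 and 159, 367 and 599 FPKM for Drd2 replicates 1, 2 and 3. None was at 0 in all libraries, and 3 were at 0 in Drd2 replicate 1. Most of the sum was Aldoc (485 to 512 FPKM in PV, 137 to 486 FPKM in Drd2) and S100b (45.4 to 144 and 10.9 to 96.7 FPKM). Aqp4 (1.58 to 2.71 and 0 to 3.90 FPKM) and Slc1a3 (2.52 to 6.84 and 1.60 to 11.7 FPKM) were low and overlapped between groups. Of the 6 astrocyte markers tested, 5 had a fold above 0 and 1 below, and none passed. The part of these markers in the level of Kcnk1 was not tested.

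Kcnk2 and Kcnk10 encode TREK1 and TREK2, leak channels opened by membrane stretch, warmth and polyunsaturated lipids. Kcnk2 was at 3.05, 0.811 and 1.26 FPKM in PV replicates 6, 7 and 8, against 0.00600, 2.18 and 2.54 FPKM in Drd2 replicates 1, 2 and 3. Drd2 replicate 1 held a single fragment of Kcnk2, and the other libraries 111 to 449. The fitted log2 fold was 0.18 ± 0.70 (SE; 95% interval from -1.38 to 1.74; limma adjusted p = 0.932), and without Drd2 replicate 1 it was -0.39. Kcnk10 was at 0.340, 0.0453 and 2.22 FPKM in PV replicates 6, 7 and 8, against 0.402 FPKM in Drd2 replicate 2, and it was listed at 0 in Drd2 replicates 1 and 3. Only PV replicate 8 reached 1 FPKM of Kcnk10, with 553 fragments, so the gene was not tested.

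Kcnk12 encodes THIK2, a subunit that stays largely inside the cell and gives little current alone. It was at 8.68, 0.440 and 3.54 FPKM in PV replicates 6, 7 and 8, against 0.661, 3.01 and 2.23 FPKM in Drd2 replicates 1, 2 and 3. The highest and the lowest value both came from PV. On the log2 scale the fold was 0.52 ± 0.83 (SE; 95% interval from -1.33 to 2.37; limma adjusted p = 0.833), and without PV replicate 6 it was -0.12. PV replicate 7 and Drd2 replicate 1, the low libraries for Kcnk12, were also the low ones for Kcnj6 and Kcnk2. In numbers of genes at 1 FPKM or more these were the lowest of their groups, at 8610 in PV replicate 7 and 11110 in Drd2 replicate 1. PV replicate 8, with 10293, had fewer such genes than Drd2 replicate 1 but a higher level of each of the 3 genes. The part of these numbers in the levels of the 3 genes was not tested.

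**Figure D2:**
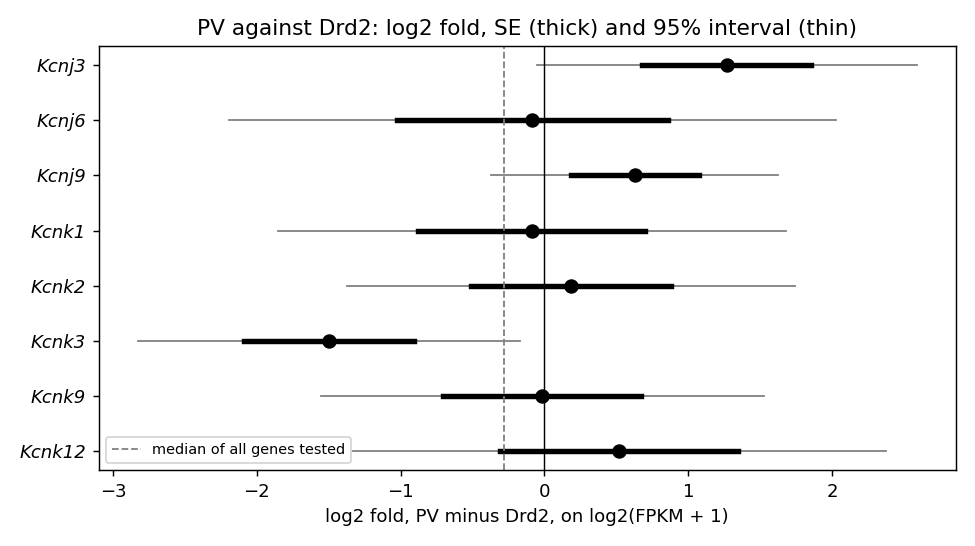
Log2 fold of PV minus Drd2 for the 8 tested genes on the log2(FPKM + 1) scale, with the SE as a thick and the 95% interval as a thin line; the dashed line is the median of all tested genes, -0.28. The interval of Kcnk3 lies below 0 before adjustment over all genes, that of Kcnj3 just includes 0, and those of Kcnj6, Kcnk1, Kcnk2, Kcnk9 and Kcnk12 are wide on both sides.

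The order of the mean levels differed at the top. In PV neurons it was Kcnj9, Kcnj3, Kcnk3, Kcnk1, Kcnk12, Kcnk9, Kcnj6, Kcnk2, Kcnk10 and Kcnj5. In Drd2 neurons it was Kcnk3, Kcnj9, Kcnk1, Kcnj3, Kcnk9, Kcnj6, Kcnk12, Kcnk2, Kcnk10 and Kcnj5. Neighbours in these orders overlapped in range, with the exception of Kcnk10 and Kcnj5 in PV. Kcnj9 was nevertheless above Kcnj3 in all 6 libraries, with Kcnj3 at 0.387, 0.998 and 0.486 of its FPKM in PV replicates 6, 7 and 8 and at 0.334, 0.665 and 0.178 in Drd2 replicates 1, 2 and 3. Kcnj9 lay above 83.0% to 89.0% of tested genes in the PV libraries and above 71.2% to 81.5% in the Drd2 libraries. For Kcnk3 these shares were 52.2% to 76.5% in PV and 72.2% to 84.4% in Drd2.

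Summed over the 4 subunits, GIRK transcripts were at 61.4, 56.5 and 42.2 FPKM in PV replicates 6, 7 and 8, against 35.9, 28.6 and 27.1 FPKM in Drd2 replicates 1, 2 and 3. The 6 K2P members together came to 45.8, 25.4 and 16.9 FPKM in the PV libraries, against 45.9, 52.8 and 28.2 FPKM in the Drd2 libraries. The GIRK sums did not overlap between groups and the K2P sums did. The ratio of the GIRK to the K2P sum was 1.34, 2.22 and 2.50 in PV and 0.781, 0.542 and 0.964 in Drd2, so GIRK transcripts exceeded K2P transcripts in each PV library and were fewer in each Drd2 library. The ratio of Kcnj9 to Kcnk3 was 2.25, 6.12 and 4.22 in PV and 0.807, 0.537 and 1.16 in Drd2, also without overlap. These sums and ratios were chosen with the values known and were not tested. Of single tested genes, 19% did not overlap between the groups in either direction, and no such share was computed for sums or ratios. Setting genes with a higher PV mean over Kcnk3, with a lower PV mean, makes separation likelier.

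Within the GIRK sum, Kcnj9 made up 59.2% ± 7.96 in PV neurons and 65.9% ± 12.5 in Drd2 neurons, and Kcnj3 35.2% ± 13.1 in PV neurons and 24.0% ± 10.9 in Drd2 neurons (SD, n = 3 each). Kcnj6, which most brain GIRK channels contain, made up 0.0587% to 12.02% in PV and 0.346% to 16.0% in Drd2. Within the K2P sum, Kcnk3 was 37.7%, 18.2% and 38.0% in PV replicates 6, 7 and 8, against 72.3%, 52.0% and 59.4% in Drd2 replicates 1, 2 and 3. Kcnk3 was thus the majority of the sum over the 6 K2P members in each Drd2 library and in no PV library. That sum leaves out other K2P genes, such as Kcnk4 (4.16 and 3.65 FPKM) and Kcnk6 (1.28 and 4.42 FPKM) in Drd2 replicates 2 and 3. With Kcnk4 and Kcnk6 counted in, Kcnk3 was no longer the majority in Drd2 replicates 2 and 3. Exact shares over all K2P genes were not computed. In PV replicate 7 the largest share was that of Kcnk1, 53.5%.

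**Figure D3:**
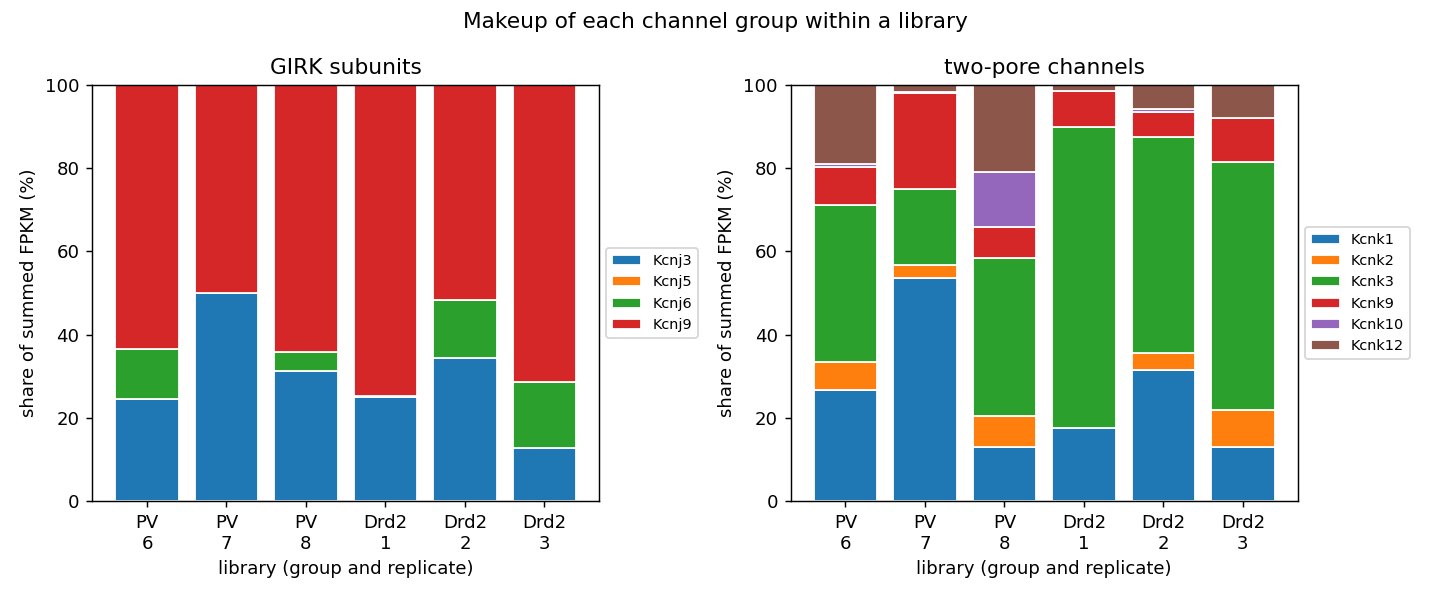
Share of each gene in the summed FPKM of the 4 GIRK subunits (left) and the 6 K2P members (right), one bar per library, PV replicates before Drd2 replicates. Kcnj9 is the largest GIRK part in all libraries, though barely in PV replicate 7. Kcnk3 fills over 50% of the K2P bar in the Drd2 libraries only, and the bar leaves out K2P genes outside the 6 members.

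Most other genes of the 2 channel families did not reach the filter. Of the 8 K2P genes outside the members, 1 passed the filter on low values: Kcnk4, which encodes TRAAK, a stretch-gated relative of the TREK channels. Kcnk4 was at 1.77, 0 and 0.363 FPKM in PV replicates 6, 7 and 8, against 5.90, 4.16 and 3.65 FPKM in Drd2 replicates 1, 2 and 3. Its groups did not overlap, as for 13.1% of tested genes on the side lower in PV, and its log2 fold of -1.82 ± 0.65 (SE) did not pass (limma adjusted p = 0.278); 587 of its exon bases are shared with Catsperz on the same strand. Kcnk16 and Kcnk18 were listed at 0 in all libraries. Kcnk6, the TWIK2 channel, was listed at 0 in PV and in Drd2 replicate 1, and reached 1.28 FPKM in Drd2 replicate 2 and 4.42 FPKM in Drd2 replicate 3. Kcnk13, the THIK1 channel of microglia, reached 0.798 and 2.27 FPKM in PV replicates 6 and 7 and 0.610 FPKM in Drd2 replicate 1, with 0 listed for the remaining libraries.

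Of 11 other inward rectifier genes 4 were tested and none passed, 2 with a fold above 0 and 2 below (median log2 fold 0.05, against -0.28 over all tested genes). Kcnj10, the main inward rectifier of astrocytes, was at 5.81, 5.08 and 9.56 FPKM in PV replicates 6, 7 and 8, against 2.94, 9.78 and 1.67 FPKM in Drd2 replicates 1, 2 and 3. The groups overlapped (log2 fold 0.65 ± 0.72 SE; limma adjusted p = 0.748). Kcnj16, its partner, was at 0.00896 to 2.22 FPKM in PV and 0.0377 to 2.52 FPKM in Drd2. Kcnj11, the pore of ATP-sensitive channels, was at 0.221 to 2.13 FPKM in PV and 0.183 to 2.97 FPKM in Drd2. Kcnj12, a strong constitutive rectifier, ranged from 0.315 to 3.51 FPKM in PV and from 0.793 to 11.2 FPKM in Drd2.

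Receptors that can open GIRK channels were examined next. Of 19 genes for Gi/o-coupled receptors 6 were tested and none passed the threshold; 3 had a fold above 0 and 3 below, with a median log2 fold of -0.10. Drd2 itself, also a Gi/o-coupled receptor, was kept out of this list because it labels a group. Its log2 fold was -4.79 ± 0.81 (SE; limma adjusted p = 0.0501), with a smaller p than any receptor in the list, and it did not pass either. Adora1, the adenosine A1 receptor, was at 16.0, 9.47 and 13.9 FPKM in PV replicates 6, 7 and 8, against 0.364, 1.81 and 9.01 FPKM in Drd2 replicates 1, 2 and 3. It did not overlap between groups, as for 5.83% of tested genes on the side higher in PV (log2 fold 2.04 ± 0.80 SE; limma adjusted p = 0.330). The opioid-family receptor Oprl1 was at 30.4, 1.15 and 2.95 FPKM in PV, against 16.1, 46.4 and 35.3 FPKM in Drd2 (log2 fold -2.26 ± 0.93 SE; limma adjusted p = 0.354). The mu opioid receptor Oprm1 was at 0.288, 0 and 2.92 FPKM in PV, against 1.48, 9.48 and 9.74 FPKM in Drd2 (limma adjusted p = 0.380).

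Of 9 G-protein alpha and beta genes 7 were tested and none passed (4 with a fold above 0, median log2 fold 0.17). The smallest p among them were those of Gnai2, Gnb1 and Gnai1, with adjusted p of 0.456 to 0.519 in limma. Gnb1, a beta subunit that can gate GIRK channels, was at 77.5, 34.0 and 144 FPKM in PV and at 36.0, 40.4 and 39.4 FPKM in Drd2.

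All 13 regulators of GIRK signalling were tested; none passed, 7 had a fold above 0 and 6 below, and the median log2 fold was 0.15. Rgs4, a GTPase activator that speeds the closing of GIRK channels, was at 78.2, 94.4 and 84.7 FPKM in PV replicates 6, 7 and 8, against 294, 265 and 174 FPKM in Drd2 replicates 1, 2 and 3. The groups did not overlap, as for 13.1% of tested genes on the side lower in PV, and the log2 fold was -1.47 ± 0.36 (SE; limma adjusted p = 0.132). Rgs7bp, the membrane anchor of R7-class RGS proteins, went the other way, at 65.5, 42.5 and 75.0 FPKM in PV, against 25.1, 8.59 and 17.4 FPKM in Drd2 (log2 fold 1.86 ± 0.50 SE; limma adjusted p = 0.170). Kctd16, an auxiliary subunit of GABA-B receptors, was at 18.3, 0.0727 and 10.9 FPKM in PV, against 32.6, 39.0 and 37.5 FPKM in Drd2 (log2 fold -2.57 ± 0.95 SE; limma adjusted p = 0.297). The GABA-B receptor subunits themselves, Gabbr1 and Gabbr2, were at 20.2 to 55.8 and 9.19 to 26.3 FPKM in PV and at 17.3 to 34.9 and 8.95 to 17.8 FPKM in Drd2; both overlapped between groups and were chosen after their values were seen.

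The Gq pathway, which can close TASK and TREK channels, had 8 of 14 genes tested and none past the threshold (5 with a fold above 0, 3 below, median log2 fold 0.04). Chrm3, the M3 muscarinic receptor, had the smallest p of all genes in these pathway lists. It was at 0.123, 0.0289 and 0.344 FPKM in PV replicates 6, 7 and 8, against 9.79, 6.43 and 11.4 FPKM in Drd2 replicates 1, 2 and 3 (log2 fold -3.11 ± 0.62 SE; limma adjusted p = 0.0720). Plcb4, a phospholipase C that Gq activates, was at 32.9, 61.1 and 41.8 FPKM in PV, against 15.4, 10.8 and 16.2 FPKM in Drd2 (log2 fold 1.59 ± 0.45 SE; limma adjusted p = 0.185). Chrm3 was thus low in each PV library and Plcb4 high, and neither overlapped between the groups; of all tested genes, 13.1% were without overlap on the side lower in PV and 5.83% on the side higher in PV. A relative of Plcb4, Plcb1, was at 2.47, 4.40 and 0.124 FPKM in PV, against 0, 2.50 and 0.249 FPKM in Drd2 (limma adjusted p = 0.725).

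Among 8 genes for partners of K2P channels none passed, 3 had a fold above 0 and 5 below, and the median log2 fold was -0.57. S100a10, a binding partner of TASK1, was at 14.1, 43.5 and 0 FPKM in PV replicates 6, 7 and 8, against 127, 85.5 and 21.7 FPKM in Drd2 replicates 1, 2 and 3 (limma adjusted p = 0.375). Ywhaz, a 14-3-3 protein of the class that carries TASK channels to the surface, was at 53.3 to 85.4 FPKM in PV and 111 to 146 FPKM in Drd2, without overlap, as for 13.1% of tested genes on that side (log2 fold -0.80 ± 0.37 SE; limma adjusted p = 0.413). Arf6, a trafficking GTPase, was at 12.4, 0.235 and 16.2 FPKM in PV, against 16.3, 21.9 and 28.1 FPKM in Drd2 (limma adjusted p = 0.462).

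The genes with the profile most like that of Kcnj3, by the root mean square difference of centred log2(FPKM + 1) values over 6 libraries, were Tm9sf3 (0.163), Apoo (0.166) and Homer1 (0.187). The median difference from Kcnj3 over all tested genes was 1.25. For Kcnk3 they were Sarm1 (0.138), Spag5 (0.176) and Prkcsh (0.179), with a median of 1.11 over all tested genes. Homer1 was at 3.89, 5.45 and 3.29 FPKM in PV replicates 6, 7 and 8, against 1.85, 1.51 and 0.0736 FPKM in Drd2 replicates 1, 2 and 3. None of the 6 genes passed the threshold, with adjusted p from 0.276 to 0.511 in limma.

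Markers of other cells moved with the groups or with single libraries. The 5 haemoglobin and erythroid genes summed to 743 to 3204 FPKM in PV and 0 to 12.1 FPKM in Drd2, with none of them at 0 in all libraries and all 5 at 0 in Drd2 replicate 3; 3 of them passed the threshold, higher in PV. The 3 GABAergic markers summed to 2.31 to 17.4 FPKM in PV and 0 to 0.859 FPKM in Drd2. These sums separated the groups, as Kcnj3 and Kcnj9 did. The 5 markers of oligodendrocyte precursors summed to 10.7 to 24.8 FPKM in PV and 1.67 to 4.35 FPKM in Drd2, but Lhfpl3 alone among them separated the groups. The defining markers Pdgfra and Cspg4 were at most 1.13 and 0.0450 FPKM in PV and at most 0.163 and 0.0279 FPKM in Drd2, while C1ql1 reached 14.2 FPKM in PV replicate 6 only and Neu4 16.7 FPKM in PV replicate 8 only. The 10 microglial markers summed to 448 to 1393 FPKM in PV and 23.9 to 3689 FPKM in Drd2, lowest in Drd2 replicate 1 and highest in Drd2 replicate 3. Of these 10, 9 had a fold above 0 (median log2 fold 1.65) and none passed the threshold. The 10 oligodendrocyte markers summed to 69.8 to 337 FPKM in PV and 74.2 to 1467 FPKM in Drd2. Of these 10, 9 had a fold below 0 (median log2 fold -1.62), 3 at an unadjusted p under 0.05 and none past the threshold in limma; Mog, at 0 to 2.54 FPKM in PV and 7.85 to 254 FPKM in Drd2, did not overlap. The 7 vascular markers stayed at or below 4.70 FPKM in both groups, with Cldn5 listed at 0 throughout, and 4 ependymal markers at or below 3.73 FPKM in PV and 8.05 FPKM in Drd2. Genes encoded in mitochondrial DNA made up 9.62% to 31.3% of the FPKM total in PV and 3.74% to 5.20% in Drd2. With FPKM rescaled without them, the log2 folds were 1.37 for Kcnj3, 0.74 for Kcnj9 and -1.39 for Kcnk3, and Kcnj3 and Kcnj9 again did not overlap. The part of the cell markers in the levels of the channel genes was not tested.

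**Figure D4:**
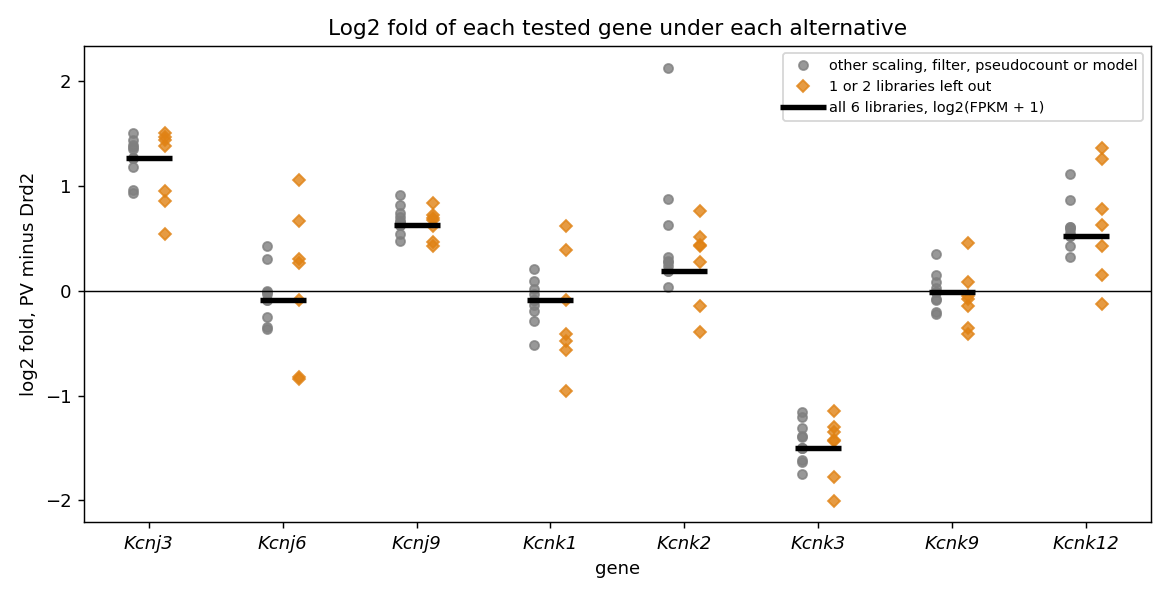
Log2 fold of PV minus Drd2 for the 8 tested genes under each alternative, with the value from all 6 libraries on log2(FPKM + 1) as a black bar, other scalings, filters, pseudocounts and models in grey, and fits without 1 or 2 libraries in orange. Kcnj3 and Kcnj9 stay above 0 and Kcnk3 below 0 under all 18 alternatives, while Kcnj6, Kcnk1, Kcnk2, Kcnk9 and Kcnk12 cross 0.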

How the data were processed

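Libraries were made from column-purified RNA with a SMARTer mRNA kit, per the labels' protocols. The authors deposited one table of FPKM per gene and library. STAR, hg38, GRCh38 and mm10 are named per the submitters' processing notes; the quantifier, its annotation and its use of strand were not given in the sources used here. Every FPKM was used as deposited. Positions, exon lengths and transcript sequences are from GENCODE M21 (GRCm38, the assembly called mm10), in which 52133 gene identifiers (94.1%) were found. FPKM times exon length gave whole fragments (97.9% to 98.8% of values of at most 20 fragments lay within 0.01 of a whole number, where chance gives 2%). Exact zeros are reported as listed.

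Groups were compared by limma 3.58.1 (R 4.3.3) on log2(FPKM + 1) with an intensity trend, 2-sided; folds of weakly expressed genes are understated. P-values were adjusted over all 11478 genes tested. The script was tested on simulated data. The replicate spread covers these libraries only, which the series design calls biological replicates. Named were all members, up to 3 tested genes with the smallest p per pathway list, Kcnk13, Kcnj10, Kcnj16, Pvalb and Drd2, and the 3 nearest profiles for a GIRK and a K2P member; other genes were chosen after their values were seen. Members and lists were chosen with earlier results of these data known. The sodium leak list held 4 names, of which Fam155a was not found among the gene names of the deposited table. Alternatives were other pseudocounts, filters, scalings, variance models, limma voom on recovered fragments and leaving out each library; leaving out PV replicate 7 with Drd2 replicate 3 was chosen after seeing the data.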

Additional observations from a re-analysis of the deposited data

How the results depend on the processing

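No member passed the threshold in limma under any of 18 alternatives, over which the lowest adjusted p was 0.141. Of 140 folds of the 8 tested members from these alternatives 20 had the opposite sign, none of Kcnj3, Kcnj9 or Kcnk3; the cause was not tested. For Kcnj6 these were 0.42 with quantile normalization, 0.31 with array weights, 0.67 without PV replicate 7, 0.26 without Drd2 replicate 2, 0.30 without Drd2 replicate 3 and 1.06 without PV replicate 7 and Drd2 replicate 3 (range without a single library -0.84 to 0.67). For Kcnk1 they were 0.092 with median-of-ratios scaling, 0.21 with quantile normalization, 0.017 rescaled without mitochondrial genes, 0.62 without PV replicate 8 and 0.39 without Drd2 replicate 2 (lowest value without a single library -0.57). For Kcnk9 they were 0.030 with a pseudocount of 5 FPKM, 0.15 with median-of-ratios scaling, 0.35 with quantile normalization, 0.079 rescaled without mitochondrial genes, 0.45 without PV replicate 8 and 0.08 without Drd2 replicate 1. Kcnk12 was -0.12 without PV replicate 6, and Kcnk2 was -0.15 without PV replicate 6 and -0.39 without Drd2 replicate 1; with voom, Kcnk2 reached 2.13. Without PV replicate 7 and Drd2 replicate 3 together, the log2 folds were 0.76 for Kcnk2, 1.36 for Kcnk12, -0.96 for Kcnk1 and -0.42 for Kcnk9.

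The 30 genes called over all genes (5 higher in PV, 25 lower) became 4 with a pseudocount of 0.1 FPKM, 68 with 5 FPKM, 0 with no filter on low values (1509 at an unadjusted p under 0.05 in limma), 68 with quantile normalization, 46 without an intensity trend, 105 with array weights, and 18 without PV replicate 7 and Drd2 replicate 3. Without a single library the count ran from 1 to 56: 56, 42 and 20 without PV replicates 6, 7 and 8 and 2, 3 and 1 without Drd2 replicates 1, 2 and 3. With quantile normalization 22 were higher in PV and 46 lower. Over all tested genes the median fold was -0.28 as deposited, -0.50 in TPM, -0.12 under median-of-ratios scaling and 0.05 under quantile normalization. No paired analysis was possible because the groups share no replicate number. A filter of 5 FPKM left no value for Kcnj6, Kcnk2, Kcnk9 and Kcnk12. With 3 libraries a group, the 95% intervals were wide on both sides of 0, from -1.38 to 1.74 for Kcnk2 and from -1.33 to 2.37 for Kcnk12, and Kcnk10 had no test with the filter on low values.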

Other observations

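The sodium leak channel, which pulls the membrane potential the opposite way to GIRK and K2P channels, was measured through 3 of its genes. Nalcn, its pore, was at 8.29, 19.8 and 7.93 FPKM in PV replicates 6, 7 and 8, against 3.58, 2.21 and 13.5 FPKM in Drd2 replicates 1, 2 and 3 (log2 fold 1.01 ± 0.73 SE; limma adjusted p = 0.599). Unc80, an auxiliary subunit, was at 10.8, 20.5 and 21.5 FPKM in PV, against 9.61, 10.1 and 8.73 FPKM in Drd2. Its groups did not overlap, as for 5.83% of tested genes on the side higher in PV, and it did not pass (log2 fold 0.77 ± 0.51 SE; limma adjusted p = 0.559). Unc79 was at 2.87 to 4.38 FPKM in PV and 2.74 to 6.39 FPKM in Drd2 (limma adjusted p = 0.929).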
